A study of Mus musculus with 10 samples.

Results

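Genes that build and remove bone were followed in cochlear RNA of mice whose mitochondrial DNA polymerase is error-prone, set against wild-type mice. The members were 10 genes set by name: Ibsp, Spp1, Dmp1, Phex, Sost and Alpl of the osteoblast and osteocyte side, Ctsk and Acp5 of the osteoclast side, and Tnfrsf11b and Tnfsf11, which regulate osteoclast formation. A probe set is the unit of an Affymetrix array, designed to read a transcript though some can also bind others. Each was taken where the platform's gene table gave it a member's symbol, under its current or an older name. This found 16 of the 45037 probe sets, for 9 of the 10 genes; Spp1 had no probe set under its name and was not analysed here.

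The study placed RNA from 10 cochlea samples on arrays, 5 from wild-type mice (Polg+/+) and 5 from mice homozygous for the mutation (PolgD257A/D257A). All 10 were male and 9 months old. Polg is the gene of the enzyme that copies mitochondrial DNA, and with the D257A mutation this enzyme no longer proofreads. The mutation is carried in the whole animal and not in the cochlea or in bone alone. The labels do not say that each numbered sample is a separate animal, so p-values measure the spread between these samples, which may be technical. The study asked what a load of mitochondrial DNA mutations changes in cochlear gene expression.

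The cochlea lies inside the otic capsule, a dense bone that, unlike most of the skeleton, is hardly remodelled in adult life. Osteoblasts lay down matrix and mineral, some of them become osteocytes inside it, and osteoclasts, which arise from blood-cell precursors, dissolve it. Osteoclasts form when the ligand RANKL (Tnfsf11) binds its receptor RANK, and the secreted decoy receptor osteoprotegerin (Tnfrsf11b), which the soft tissues of the cochlea are known to make in quantity, blocks that step. A dissected cochlea therefore carries bone, marrow spaces and soft tissue together. In such bulk RNA, fewer cells of a type and less RNA per cell cannot be told apart.

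Dmp1 and Ibsp are direct neighbours on mouse chromosome 5, between Dspp and Mepe, in a cluster of genes for acidic matrix phosphoproteins that ends with Spp1 (gene order from RefSeq, GRCm38.p6). RefSeq start-site windows were found for 9 of the 10 members. The 250 bases before the annotated start are printed for the 4 members whose brighter probe set had an unadjusted p under 0.05 in the comparison below, Ibsp and Tnfsf11 with higher and Phex and Ctsk with lower means in D257A. Capitals mark matches, on either strand, to any of 4 motifs. These were the CCAAT box, spelled as in its name, the TATA element as TATAAA, the core bound by RUNX factors as TGTGGT, and the AP-1 element as TGAGTCA; none overlaps another in these windows.
Ibsp, chr5:104299037-104299286, plus strand: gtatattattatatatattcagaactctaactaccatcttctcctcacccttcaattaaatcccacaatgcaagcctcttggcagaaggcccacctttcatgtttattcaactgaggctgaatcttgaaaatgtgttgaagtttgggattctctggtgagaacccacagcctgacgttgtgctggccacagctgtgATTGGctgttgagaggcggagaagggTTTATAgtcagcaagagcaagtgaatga
Tnfsf11, chr14:78308044-78308293, minus strand: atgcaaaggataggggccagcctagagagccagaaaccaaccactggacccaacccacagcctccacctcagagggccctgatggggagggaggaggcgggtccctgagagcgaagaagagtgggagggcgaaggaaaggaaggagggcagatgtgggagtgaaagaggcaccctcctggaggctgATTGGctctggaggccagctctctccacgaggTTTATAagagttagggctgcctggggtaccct
Phex, chrX:157415287-157415536, minus strand: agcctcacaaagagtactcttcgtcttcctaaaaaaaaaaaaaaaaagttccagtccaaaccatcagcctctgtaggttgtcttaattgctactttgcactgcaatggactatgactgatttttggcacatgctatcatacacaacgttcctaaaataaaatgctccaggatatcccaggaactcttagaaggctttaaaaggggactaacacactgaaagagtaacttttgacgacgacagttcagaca
Ctsk, chr3:95498960-95499209, plus strand: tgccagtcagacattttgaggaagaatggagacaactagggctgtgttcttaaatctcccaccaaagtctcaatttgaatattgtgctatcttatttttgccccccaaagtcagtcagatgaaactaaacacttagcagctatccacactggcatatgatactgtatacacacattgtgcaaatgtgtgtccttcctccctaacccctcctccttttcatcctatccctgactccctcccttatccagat
The Ibsp window holds a reversed CCAAT box whose first base lies 54 bases before the start and a reversed TATA match 28 bases before it. The Tnfsf11 window holds the same reversed pair, 64 and 32 bases before its start. The windows of Phex and Ctsk hold none of the 4 motifs, which says only that these letters are not there. Among members whose windows are not printed, Sost and Acp5 hold CCAAT letters and Alpl holds TATA, all with lower means in D257A. Dmp1, with higher means, holds CCAAT and the RUNX core, and Spp1, not analysed, holds CCAAT, TATA and the RUNX core. A link between these letters and the direction of a gene was not tested. Of 32851 RefSeq windows of this length, 33.8% hold the CCAAT letters, 12.4% TATA, 14.0% the RUNX core and 4.46% AP-1.

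The deposited values are linear array signals that the authors had already scaled. The trimmed mean signal was 1494 to 1496 on every array, and signals of different probe sets are not comparable with each other as transcript levels. A probe set was tested when it stood in the brighter 22518 of the 45037 by its mean log2(signal + 16) over all arrays, which turned back into a signal is about 577 or more. It was called when limma, a linear model fitted to log2(signal + 16) of all 22518 tested probe sets, gave a Benjamini-Hochberg adjusted p under 0.05. All log2 fold changes are of signal plus 16, so those of dim probe sets come out too small. Wild-type replicate 3 and D257A replicate 2 stood apart from their groups. Their mean correlations with the arrays of their own group were 0.914 and 0.89, against 0.933 to 0.94 for the other wild-type and 0.906 to 0.921 for the other D257A arrays. The cochlear markers Coch and Otos, of the spiral ligament, were bright in both groups, with means of 74290 and 68705 for Coch and 49879 and 43041 for Otos in wild type and D257A.

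None of the members was called. Of their 16 probe sets 10 were tested, for 8 genes, and 0 of these 10 passed in limma, where 2.28% of all tested probe sets did. At an unadjusted p under 0.05, 1 was higher (Ibsp) and 2 were lower (Phex and Ctsk) in D257A, and 16.9% of all tested probe sets reached that level (8.28% higher and 8.64% lower). The groups did not overlap for 0 of the 10, against 5.16% of all tested probe sets. Of the 10 estimates 5 were positive and 5 negative. The 6 others were read from the same model without the filter on low signals, where none of the 16 was called either and 1.31% of 45037 probe sets were. At an unadjusted p under 0.05 that fit had 4 of the 16 higher (both of Ibsp and 1 each of Dmp1 and Tnfsf11), against 9.96% of all probe sets. It had 3 lower (1 each of Phex, Sost and Ctsk), against 5.9%. Over all 16, the groups did not overlap for 1, the dimmer Ibsp probe set, which was higher in D257A; 2.86% of all 45037 probe sets were higher with no overlap. The count of called member probe sets was also 0 without wild-type replicate 3 and D257A replicate 2.

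**Figure D1:**
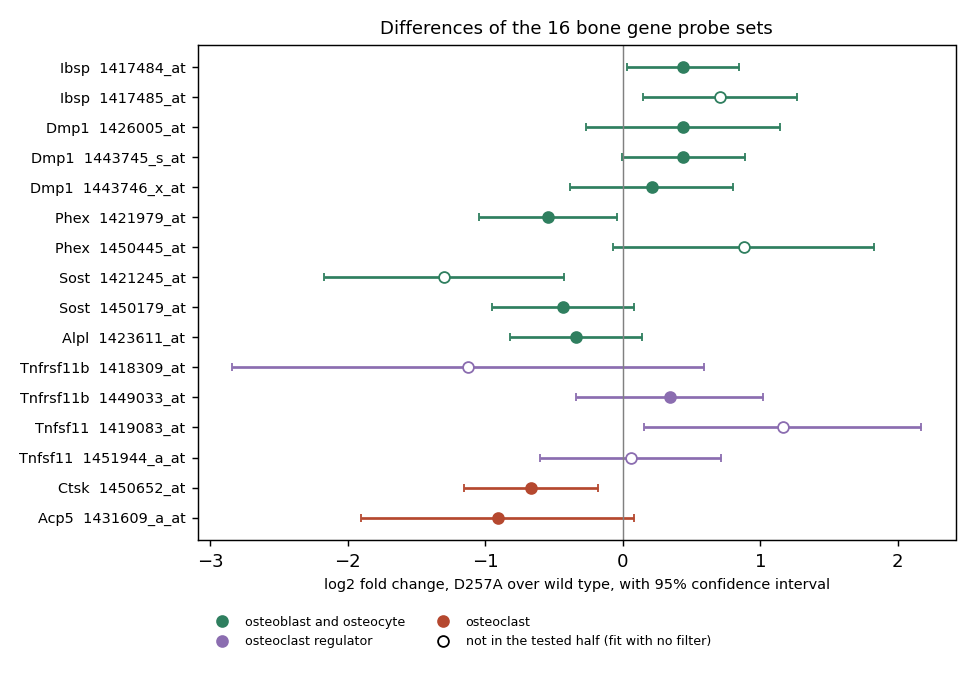
Log2 fold change of D257A over wild type for each of the 16 probe sets, with its 95% confidence interval from limma; colours give the role of the gene, and open circles are the 6 probe sets read from the fit with no filter. Both Ibsp and all 3 Dmp1 probe sets lie right of 0, Ctsk, Acp5 and Alpl lie left of it, and the 2 probe sets of Phex and of Tnfrsf11b lie on opposite sides.

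Ibsp encodes bone sialoprotein, an acidic matrix protein that binds cells and seeds mineral crystals. Its brighter probe set, 1417484_at, measured 1731.5, 1286.0, 2361.5, 1769.6 and 1258.7 in wild-type replicates 1 to 5, and 2174.1, 2264.7, 2042.8, 2160.4 and 2482.3 in D257A replicates 1 to 5. All D257A arrays lay above 4 of the 5 wild-type arrays, and wild-type replicate 3 lay among them. The means were 1681 ± 449.4 and 2225 ± 164.1 (SD, n = 5 each), a log2 fold change of 0.44 (95% confidence interval 0.03 to 0.84) with a limma adjusted p of 0.259. Without wild-type replicate 3 it was 0.57 with an adjusted p of 0.0984. The second probe set, 1417485_at, measured 434.5, 438.4, 285.0, 392.0 and 488.5 in wild type and 745.4, 501.5, 651.2, 1009.2 and 529.0 in D257A. These groups did not overlap, although the gap between the highest wild-type and the lowest D257A array was small. Its log2 fold change was 0.71 (0.15 to 1.26) with an adjusted p of 0.203 in the fit with no filter. Over the 10 arrays the log2 signals of both probe sets correlated weakly (Pearson r = 0.19). Wild-type replicate 3 was the highest wild-type array on 1417484_at and the lowest on 1417485_at.

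Dmp1, dentin matrix protein 1, is a phosphoprotein of osteocytes that takes part in mineralization and in phosphate balance. The probe set 1443745_s_at measured 1783.6, 2311.5, 2966.0, 2686.0 and 2174.0 in wild type and 3711.0, 2997.9, 3816.8, 3760.6 and 2078.1 in D257A. D257A replicates 1 to 4 lay above every wild-type array, and replicate 5 lay near the low end of the wild-type range. The log2 fold change was 0.44 (-0.01 to 0.89) with an adjusted p of 0.305. The brightest probe set, 1443746_x_at, measured 4273.1, 5902.3, 4172.4, 5307.0 and 3925.0 in wild type and 7708.6, 3830.3, 6187.3, 8382.8 and 2984.5 in D257A. Here D257A replicates 1, 3 and 4 exceeded all wild-type arrays while replicates 2 and 5 fell below all of them, so the D257A values split to both sides of the wild-type range (log2 fold change 0.21, -0.38 to 0.80, adjusted p = 0.75). Its estimate was 0.083 and 0.053 without D257A replicates 1 and 4, and 0.33 and 0.42 without replicates 2 and 5. The third, 1426005_at, separated the same D257A arrays, with 1468.1, 2372.3 and 1873.6 in D257A replicates 1, 3 and 4 and 635.1 and 824.0 in replicates 2 and 5, against 699.7 to 1090.0 in wild type. Its log2 fold change of 0.44 (adjusted p = 0.53) was 0.69 without D257A replicate 2 and 0.22 without D257A replicate 3. The suffixes _x_at and _s_at mark probe sets that can also bind other or related transcripts.

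**Figure D2:**
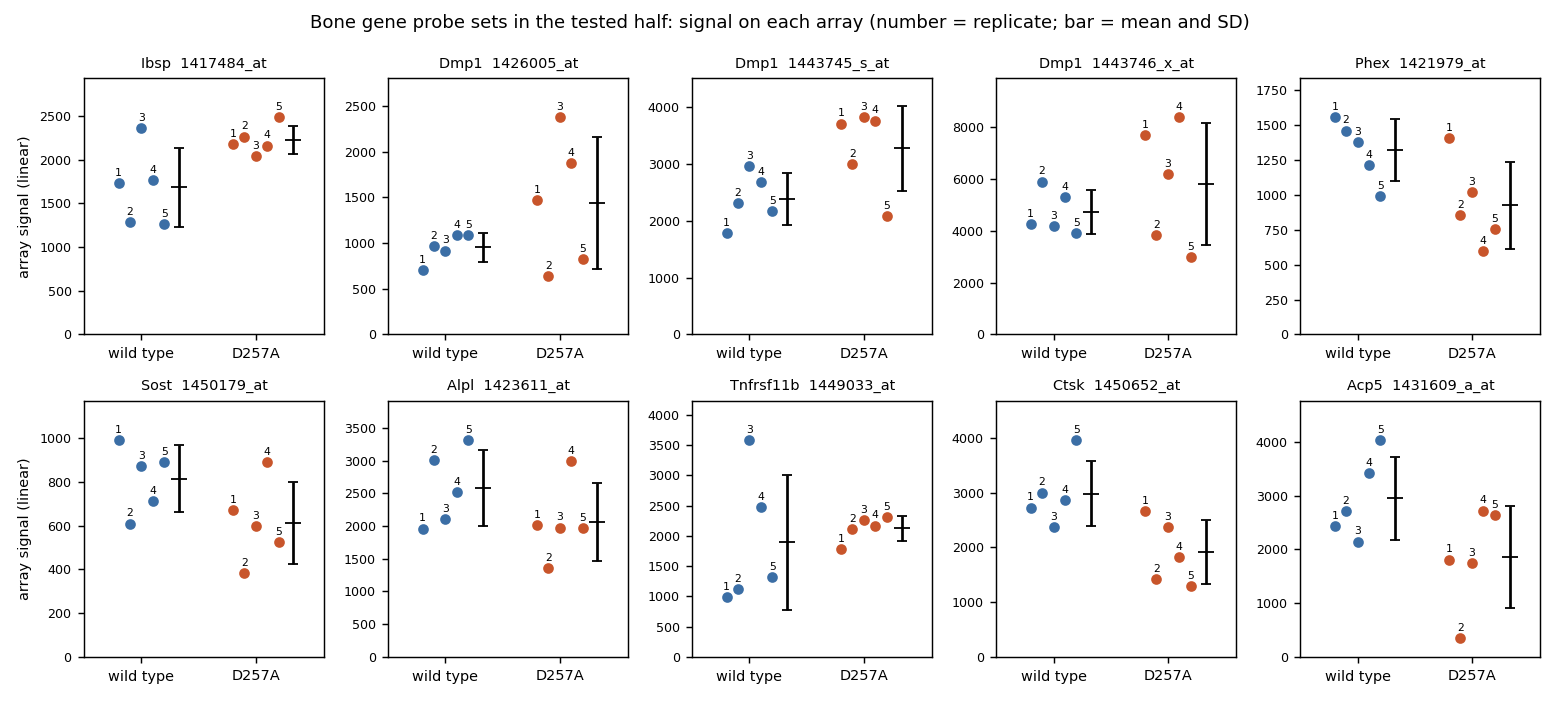
Linear array signal of the 10 tested probe sets on each array; points are arrays numbered by replicate, blue for wild type and orange for D257A, and the black bar is the mean and SD of the 5 arrays. The groups overlap in every panel. D257A replicates 2 and 5 lie below the other D257A arrays in the Dmp1 panels, and D257A replicate 2 is lowest for Acp5, Alpl and Sost.

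The other formation-side members had lower means in D257A. Phex encodes a cell-surface peptidase of osteoblasts and osteocytes that restrains the phosphate hormone Fgf23. Its tested probe set, 1421979_at, measured 1551.8, 1457.8, 1377.5, 1209.8 and 987.7 in wild type and 1404.8, 851.5, 1018.6, 593.4 and 752.4 in D257A. In 3 of 5 D257A arrays it lay below the lowest wild-type array (means 1317 ± 222.8 and 924.1 ± 309.9, SD, n = 5 each; log2 fold change -0.55, -1.05 to -0.04; limma adjusted p = 0.254). The other Phex probe set, 1450445_at, drawn from the same source sequence, was dim (31.1 to 131.9 in wild type and 80.0 to 270.8 in D257A) and pointed the other way, with a log2 fold change of 0.88 (adjusted p = 0.354 with no filter). The gene therefore has no single direction on these arrays.

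Sost encodes sclerostin, which osteocytes secrete and which blocks Wnt signalling in osteoblasts. Its tested probe set, 1450179_at, measured 993.4, 609.9, 874.9, 712.9 and 890.3 in wild type and 671.3, 384.3, 600.3, 890.6 and 525.6 in D257A. D257A replicates 2, 3 and 5 lay below all wild-type arrays and replicate 4 lay near the top of their range (log2 fold change -0.43, -0.95 to 0.08; adjusted p = 0.384; -0.28 without D257A replicate 2). The second probe set, 1421245_at, had the most negative estimate among the 16, at 168.3, 173.7, 43.0, 84.6 and 142.3 in wild type and 64.5, 22.7, 33, 46.3 and 22.4 in D257A. Its D257A arrays lay below 4 of the 5 wild-type arrays. All these signals are far under the edge of 577, and whether they exceed background is not known (log2 fold change -1.30, -2.17 to -0.42; adjusted p = 0.139 with no filter). Leaving out wild-type replicate 3 gave an adjusted p of 0.0597, the lowest that any member reached when 1 array was left out.

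Alpl, the tissue-nonspecific alkaline phosphatase, removes pyrophosphate, an inhibitor of mineral growth. It measured 1958.9, 3006.4, 2109.2, 2523.5 and 3316.0 in wild type and 2009.2, 1352.6, 1975.0, 2995.8 and 1965.3 in D257A (1423611_at). The groups overlapped widely, with only D257A replicate 2 outside the wild-type range. The log2 fold change was -0.34 (-0.82 to 0.14) with an adjusted p of 0.469, and -0.20 without D257A replicate 2.

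**Figure D3:**
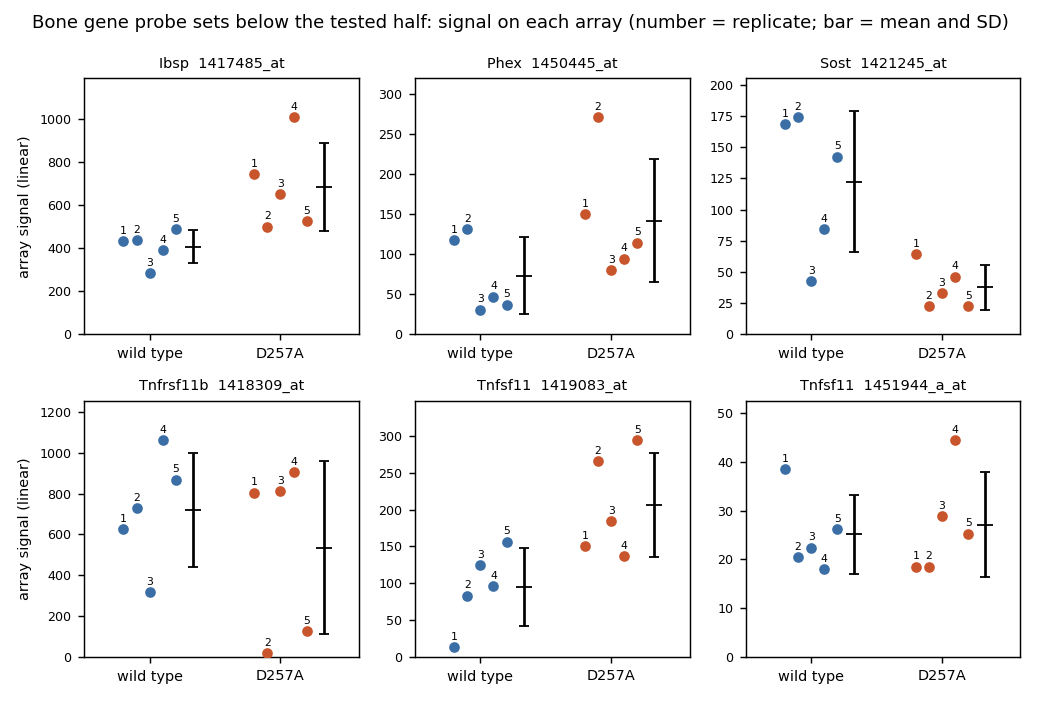
Linear array signal of the 6 member probe sets outside the tested ones by their mean log2 signal, on each array; points are arrays numbered by replicate, blue for wild type and orange for D257A, and the black bar is the mean and SD of the 5 arrays. Only the Ibsp panel has groups that do not overlap, and Tnfrsf11b 1418309_at is at 18.4 and 127.9 in D257A replicates 2 and 5 against 804.1 to 906.2 in the other D257A arrays.

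The regulators of osteoclast formation gave unlike readings between their own probe sets. For Tnfrsf11b, the brighter probe set 1449033_at measured 987.9, 1118.9, 3589.0, 2481.7 and 1313.7 in wild type and 1782.8, 2111.0, 2257.6, 2171.8 and 2310.6 in D257A. All D257A arrays lay inside the wild-type range, which was wide because of replicates 3 and 4 (means 1898 ± 1115 and 2127 ± 207.1, SD, n = 5 each; log2 fold change 0.34, -0.34 to 1.02; limma adjusted p = 0.629). It was 0.61 without wild-type replicate 3 (adjusted p = 0.19), and leaving out wild-type replicate 1 or 2 gave 0.15 or 0.20. The dimmer probe set 1418309_at, from the same source sequence and not among the tested, measured 625, 726.9, 317.2, 1062.6 and 868.5 in wild type and 804.1, 18.4, 810.6, 906.2 and 127.9 in D257A. Its log2 fold change of -1.12 (-2.84 to 0.59; adjusted p = 0.521 with no filter) rested on D257A replicates 2 and 5, and it was -0.32 without replicate 2.

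Tnfsf11 (RANKL) was dim on all arrays. The probe set 1419083_at measured 13.6, 83.3, 124.9, 95.9 and 156.6 in wild type and 150.8, 266.3, 184.8, 136.8 and 294.8 in D257A. In 3 of 5 D257A arrays it lay above the highest wild-type array (log2 fold change 1.16, 0.16 to 2.17; adjusted p = 0.247 with no filter). Without wild-type replicate 1, its lowest value, it was 0.74 (adjusted p = 0.393). The other probe set, 1451944_a_at, lay between 18.0 and 44.5 on every array, with a log2 fold change of 0.06 (adjusted p = 0.951 with no filter) that turned to -0.0082 when arrays were centred on their median and to -0.17 with quantile normalization. No balance of ligand over decoy receptor was computed, since Tnfsf11 lay below the tested signal range and the Tnfrsf11b probe sets differ in sign.

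Both osteoclast enzymes had lower means in D257A, and neither passed. Ctsk encodes cathepsin K, the protease with which osteoclasts digest bone collagen. It measured 2725.8, 2999.9, 2365.0, 2858.2 and 3965.5 in wild type and 2665.5, 1426.6, 2370.1, 1817.3 and 1296.1 in D257A (1450652_at). D257A replicates 2, 4 and 5 lay below every wild-type array and replicates 1 and 3 lay within their range (means 2983 ± 597.8 and 1915 ± 591.9, SD, n = 5 each). The log2 fold change was -0.67 (-1.15 to -0.18), the limma adjusted p 0.148 and the unadjusted p 0.0108, the smallest among the tested members. Over the fits that left out 1 array each, the adjusted p ranged from 0.101 to 0.313.

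Acp5 encodes the tartrate-resistant acid phosphatase that marks osteoclasts and some macrophages. It measured 2429.5, 2721.2, 2148.5, 3425.0 and 4041.1 in wild type and 1811.9, 353.1, 1751.7, 2725.5 and 2635.1 in D257A (1431609_a_at). D257A replicates 1, 2 and 3 lay below every wild-type array, replicate 2 by far the most. The log2 fold change of -0.91 (-1.90 to 0.08; adjusted p = 0.341) was -0.39 without D257A replicate 2 (adjusted p = 0.427).

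Osteoblast and osteocyte members, called formation members here, were set against resorption members array by array. The name goes by cell type, and Sost counts in it although sclerostin blocks Wnt signalling in osteoblasts. Each gene was read by its brightest probe set, centred over the 10 arrays. The mean log2 signal of Ctsk and Acp5 was taken from that of Ibsp, Dmp1, Phex, Sost and Alpl. The difference was -0.12, -0.30, 0.10, -0.43 and -0.88 in wild-type replicates 1 to 5 and 0.20, 1.20, 0.10, 0.16 and -0.04 in D257A replicates 1 to 5. In 4 of 5 D257A arrays it lay above the highest wild-type array, replicate 3 by a very small margin, and D257A replicate 5 lay within the wild-type range. The group means differed by 0.65 on the log2 scale, given without a test, and by 0.44 without D257A replicate 2. The formation mean was 0.07 ± 0.06 for wild type and -0.07 ± 0.27 for D257A (SD, n = 5 each), since the values of Ibsp and Dmp1 and those of Phex, Sost and Alpl differed in opposite directions. The resorption mean was 0.39 ± 0.31 and -0.39 ± 0.69.

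**Figure D4:**
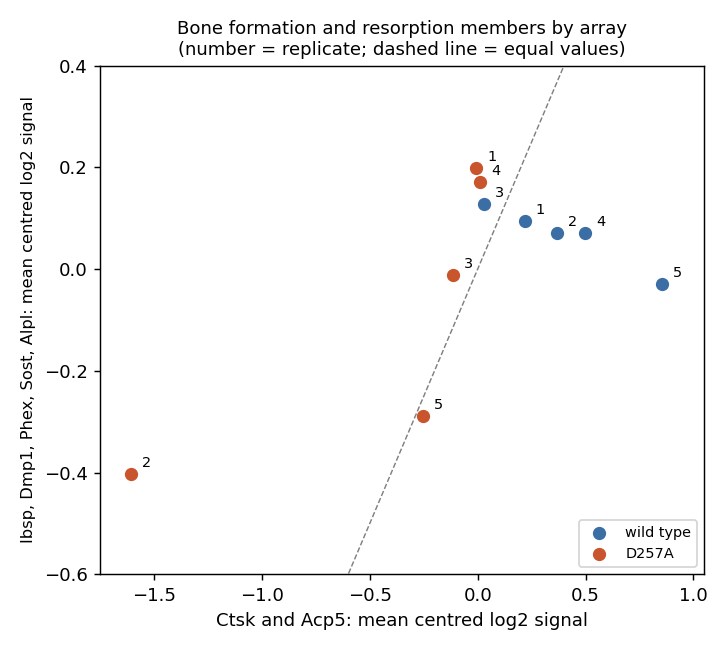
Mean centred log2 signal of Ctsk and Acp5 (horizontal) against that of Ibsp, Dmp1, Phex, Sost and Alpl (vertical) on each of the 10 arrays, numbered by replicate, blue for wild type and orange for D257A; on the dashed line both are equal. All wild-type arrays lie above 0 on the horizontal axis, D257A replicate 2 lies far left at -1.61, and the vertical ranges overlap.

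Other bone genes were read by their brightest probe set. Of 10 tested genes of the osteoblast and bone matrix list, 9 had negative log2 fold changes and 2 were called lower, with a median of -0.38 against -0.02 over all 11871 tested genes, of which 1.66% were called lower. At an unadjusted p under 0.05, 3 of the 10 were lower, and 10.2% of all tested genes were. The called genes were the chains of type I collagen, the main protein of bone and of other connective tissue. Col1a1 fell from 19392 ± 7624 to 4922 ± 2585 (SD, n = 5 each; limma adjusted p = 0.0196) and Col1a2 from 32126 ± 7551 to 17329 ± 2422 (log2 fold change -0.87, adjusted p = 0.0273). The Col1a1 call was lost without wild-type replicate 2 (adjusted p = 0.0619), wild-type replicate 5 (0.0625) and D257A replicate 1 (0.0505). That of Col1a2 was lost without wild-type replicates 2, 4 and 5 (0.0892, 0.0622 and 0.08) and without D257A replicates 1, 3 and 5 (0.0582, 0.056 and 0.0666). With the replicate number as a block neither was called. Osteomodulin (Omd), a mineral-binding proteoglycan of bone, measured 3684 ± 870.8 and 1977 ± 758.5 (adjusted p = 0.0696) and passed without wild-type replicate 3 (0.0447) or D257A replicate 1 (0.023). Of the others, the homeobox factor Dlx5 had a log2 fold change of -0.59 (adjusted p = 0.296), the sphingomyelinase Smpd3 one of -0.45 (0.435) and the cadherin Cdh11 one of -0.23 (0.608). Sp7 (osterix), the transcription factor that osteoblasts require, measured 1004 ± 164.1 and 983.1 ± 73.11, a log2 fold change of -0.02; it was named after its values were seen.

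No gene of the osteocyte and mineral list or of the osteoclast list was called by limma, and none had an unadjusted p under 0.05, where 2.32% and 16.7% of all tested genes did. Among 6 tested osteocyte and mineral genes 3 were positive and 3 negative, with a median of -0.13. Mepe, the neighbour of Ibsp, measured 967.6 ± 170.6 and 779.2 ± 117.1 (SD, n = 5 each; limma adjusted p = 0.453), so its estimate (log2 fold change -0.30) had the opposite sign to those of Ibsp and Dmp1. The Wnt co-receptor Lrp6 and the pyrophosphate transporter Ank had values of -0.36 and -0.30 (adjusted p = 0.37 and 0.371), and the osteocyte surface protein Pdpn 0.12 (0.816). The osteoclast list names 18 genes, of which 12 were tested. Of these 12, 8 were positive, with a median of 0.09 that was -0.011 when arrays were centred on their median. The RANK receptor gene Tnfrsf11a had a log2 fold change of 0.37 (adjusted p = 0.371), the growth factor Csf1 0.17 (0.585), the lysosomal protein gene Ostm1 -0.23 (0.467) and the transcription factor Nfatc1 -0.18 (0.588). The estimates of Ctsk and Acp5 lay below the lowest of the 12 tested genes, and this difference was not tested. Csf1r, 1 of the 12, is also counted among the macrophage genes below. Some tested probe sets had a sign opposite to the brightest one for Csf1r (2 of 3), Clcn7 (1 of 2) and Nfatc1 (1 of 3). Csf1r and Clcn7 are among the 8 positive genes. The untested osteoclast genes had both signs in the fit with no filter. Ocstamp, Calcr and Oscar had 0.73, 0.63 and 0.42, and Dcstamp, Traf6 and Atp6v0d2 had -0.33, -0.40 and -0.50.

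**Figure D5:**
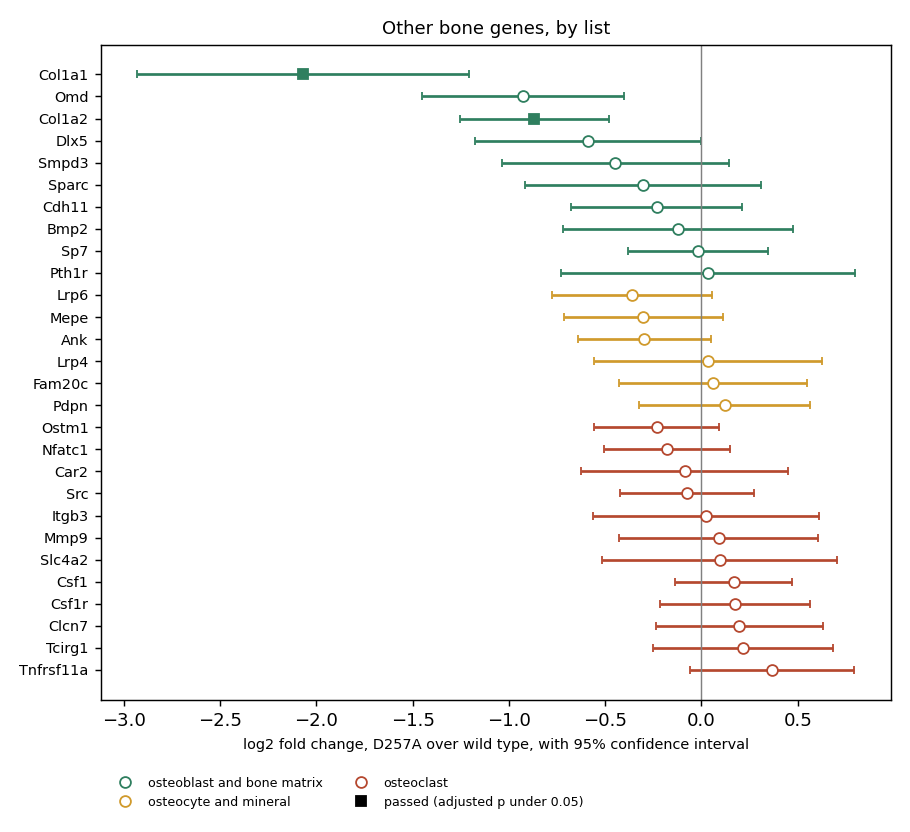
Log2 fold change of D257A over wild type with its 95% confidence interval from limma for the 28 tested genes of the 3 bone lists, coloured by list; filled squares passed an adjusted p of 0.05. Only Col1a1 and Col1a2 passed, and the osteoclast genes lie close to 0 on both sides.

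Markers of other cells moved in the same comparison. Of all 11871 tested genes, limma called 78 higher and 197 lower in D257A. At an unadjusted p under 0.05, 770 of the 11871 were higher and 1207 lower. Cartilage markers summed to signals of 14710 to 23956 in wild type and 10009 to 13124 in D257A. The brightest genes of this sum in wild type were Cytl1 (means 5923 in wild type and 2248 in D257A), Comp (4756 and 1800) and Chad (2749 and 1545), so the sum mostly follows them. Of 6 tested genes 2 were called lower, Comp and Cytl1 (log2 fold changes -1.36 and -1.33). In all, 4 of the 6 were negative, and Acan and Col9a1 were positive at 0.06 and 0.05. Marrow neutrophil genes summed to 104041 to 179665 and 103908 to 310369, with 2 of 10 called higher and 9 higher at an unadjusted p under 0.05. The remaining gene, Ltf, was called lower; without it the sums were 71137 to 120491 and 99873 to 300267. Erythroid genes summed to 25635 to 39937 and 17086 to 29951, with 0 of 3 called in limma and 1 at an unadjusted p under 0.05. Macrophage genes summed to 64403 to 132227 and 52779 to 64431, but that range followed Lyz2, which was called lower; the other 9 summed to 34284 to 41411 and 37183 to 55175, with none called and 2 higher at an unadjusted p under 0.05. Skeletal muscle (7 of 10 called lower), gland and middle ear epithelium (7 of 10 lower) and adipocyte genes (3 of 5 lower) had summed signals of 122808 to 411594, 89382 to 360478 and 100195 to 153921 in wild type and 7283 to 169130, 11238 to 22517 and 47895 to 144247 in D257A. No marker was at 0 on any array, but some were dim. The lowest single signals were 15 for adipocyte, 18 for skeletal muscle and 27.8 for cochlear markers. They were 32 for cartilage, 35.4 for erythroid, 46.2 for epithelium, 498.6 for neutrophil and 550.9 for macrophage markers. Whether the dimmest exceed background is not known, and the sums include markers that were not tested. Of 7 tested cochlear markers none was called by limma and 2 were lower at an unadjusted p under 0.05. The sums over tested and untested cochlear markers were 136076 to 187387 and 116034 to 172308, with Coch and Otos the brightest. The part of these tissues in the values of the bone genes was not tested.

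The genes most like each of the 8 members with a tested probe set over the 10 arrays were found by the Pearson correlation of log2 signals among 11871 tested genes, as a description. For Ibsp they were Rnf180 (0.959), Txnrd3 (0.936) and Hs3st2 (0.936), for Ctsk B9d1 (0.974), Kif13b (0.97) and Scn2b (0.966), and for Acp5 Derl2 (0.979), Dnajb2 (0.977) and Cpxm2 (0.97). For Dmp1 they were Galnt11 (0.954), Ctps (0.943) and Racgap1 (0.882), and for Phex Pgm2l1 (0.968), Mrpl42 (0.954) and Prim1 (0.953). Alpl came nearest to Patj (0.963), Uba7 (0.948) and Tmem51 (0.931), Tnfrsf11b to Zfp804a (0.947), Ptn (0.938) and Rab39b (0.922), and Sost to Cdh10 (0.885), Serac1 (0.884) and Ruvbl1 (0.883). None of them is in a bone list. The arrays share their scaling and the group difference, and each member was set against many genes over few arrays.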

How the data were processed

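Total cochlear RNA from 10 samples had been labelled with biotin and hybridised to Affymetrix mouse arrays, as the labels state. The authors deposited 1 linear intensity per probe set and array. The submitters' processing notes name GCOS 1.3; how background was handled is not stated there. The authors' scaling was kept. Of 45101 probe sets, 64 controls filled for 1 array only were left out. Of the rest, 34945 had 1 gene in the platform table, 932 several and 9160 were unnamed here; symbols were updated by gene ID through RefSeq (GRCm38.p6).

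Signals were analysed as log2(signal + 16) in R 4.3.3 with limma 3.58.1 (group as the only term, moderated variances with a trend on signal, two-sided, Benjamini-Hochberg adjustment at 0.05) over the brighter 0.5 of probe sets by mean log2 value. Members outside it were read from the fit with no filter. A gene was represented by its brightest tested probe set. The number of arrays limits the precision. The model was tested on simulated data.

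The text names all member probe sets, the called genes of 3 bone lists with up to 4 others per list by smallest unadjusted p, and 3 genes most like each member with a tested probe set. Members, lists and rules were chosen with earlier results of these data known. Csf1r, Clcn7, the untested osteoclast genes and the cartilage genes were named after their values were seen. Of the named genes, 13 had no probe set under their name. Alternatives were offsets of 1 and 64, other scalings, filters, priors and thresholds, array weights, a replicate block, gene means and arrays left out; the macrophage sum without Lyz2 and the neutrophil sum without Ltf were chosen after seeing the data.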

Additional observations from a re-analysis of the deposited data

Results flagged for a closer look

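A sample far from the others of its group was looked for in every member probe set, in the other named bone genes, in the formation and resorption means and in the marker sums (Dixon's test at its 95% critical value, which chance passes in about 1 of 20 groups). Over the 82 groups tested it picked out 5 values, and the first pair below shares 1 array and the same genes. The resorption mean of Ctsk and Acp5 was -1.61 in D257A replicate 2 against -0.25 to 0.01 in the other D257A arrays, and the formation minus resorption difference of the same array was 1.20 against -0.04 to 0.20. Omd measured 3317.1 in D257A replicate 1 against 1486.2 to 1816.5, Dlx5 1719.2 in D257A replicate 4 against 703.8 to 860.9, and Tnfrsf11a 439.6 in wild-type replicate 5 against 614.4 to 681.4.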

How the results depend on the processing

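No member probe set was called under any alternative with an adjusted p. Of the 10 tested, 3 (Ibsp higher, Phex and Ctsk lower) reached the threshold in the study's design text. It is an unadjusted p under 0.05 with a fold over 1.1, and 3809 of all 22518 tested probe sets (16.9%) reached it. This level did not hold under every alternative. For Ibsp 1417484_at the limma unadjusted p was 0.103 with arrays centred on the median and 0.0691 with the replicate block. Of 305 log2 fold changes of the 16 probe sets under alternatives, 301 kept their direction and, as in the main fit, did not reach an adjusted p under 0.05. The other 4, all of Tnfsf11 1451944_a_at, turned to -0.0082 (arrays centred on the median), -0.17 (quantile normalization), -0.0055 (without wild-type replicate 4) and -0.072 (without D257A replicate 4), in a range of -0.072 to 0.165 with 1 array left out. The count of all called probe sets, 513, was 322 among the brightest 30%, 1217 with array weights, 3809 at the design text's threshold, and 197 to 571 when 1 array was left out. With the replicate number as a block it was 188, and the count of called osteoblast and matrix genes fell from 2 to 0. Same-numbered arrays deviated together by correlations of -0.34 to 0.18. With so few arrays, these values cannot show whether the numbers pair the samples. The count of called osteoblast and matrix genes was 0 to 3 when 1 array was left out, and the list's median was -0.59 among the brightest 30% (-0.51 to -0.26 with 1 array left out). The osteocyte and mineral median was 0.033 among the brightest 30% and -0.21 to -0.09 with 1 array left out. The osteoclast median was -0.011 with arrays centred on the median, 0.0104 without wild-type replicate 3 and D257A replicate 2, and -0.0504 to 0.18 with 1 array left out. The formation minus resorption difference stayed between 0.44 and 0.89. Centring on the median moved the median of all tested probe sets from -0.00 to -0.10 and the split of calls from 233 higher and 280 lower to 174 and 484. The causes were not tested.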
